A study of Mus musculus with 60 samples.

Results

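The glucocorticoid receptor gene Nr3c1, the steroid-activating enzyme gene Hsd11b1 and 8 genes that glucocorticoids induce (Fkbp5, Tsc22d3, Sgk1, Zbtb16, Fam107a, Errfi1, Arrdc2 and Arrdc3) were followed in heart, gastrocnemius muscle and neocortex of aged mice. The members were taken as every probe set that carries 1 of these 10 gene symbols alone, which gave 25 of the 45101 probe sets on the array and 10 of the 18193 genes with a probe set of their own. Each gene is represented by the probe set with its highest mean log2 signal, and all 10 passed the filter on low signal in all 3 tissues.

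The study asked how a calorie restricted (CR) diet and a low dose of resveratrol, a plant polyphenol, alter the transcriptome of old animals. Affymetrix expression arrays were hybridised with RNA from 5 animals in each of 4 groups per tissue, 60 arrays in all. All mice were males of 1 hybrid strain, B6C3F1 (the first-generation cross of C57BL/6 and C3H/He), and lived in individual cages. The young control and old control groups ate the control diet (AIN93M) and were 5 and 30 months old. The old CR group was placed on restriction at 14 months of age and sampled at 30 months. GEO's labels call the restriction 40%, while the methods of the study describe a milder cut in calories. The old resveratrol group ate the control diet with resveratrol added to reach 4.9 mg per kg of body weight, also from 14 to 30 months of age. The labels call the samples of a group biological replicates and do not say which heart, muscle and neocortex came from 1 mouse.

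Glucocorticoids are steroid hormones of the adrenal cortex that rise with fasting and stress. They cross the cell membrane and bind the glucocorticoid receptor, which is held ready by heat shock proteins in the cytoplasm. The bound receptor enters the nucleus and attaches as a dimer to short palindromic DNA elements near its target genes, or acts through other transcription factors. In muscle and heart its targets steer fuel use and protein turnover, and in brain they take part in the feedback that restrains the hormone axis.

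Values are array signals after each array was scaled to a 2% trimmed mean of 500. Changes are differences of mean log2 signal with their standard error (SE), from limma fitted to all genes of a tissue, with Benjamini-Hochberg (BH) adjusted p-values and a threshold of 0.05. A gene is said to have risen or fallen only past that threshold. Summed markers matched the labelled tissues: cardiomyocyte markers summed to at least 287000 on every heart array and at most 3040 on any neocortex array, fast fibre markers to at least 217000 in muscle and at most 491 elsewhere, and neuron markers to at least 69400 in neocortex and at most 897 elsewhere. Correlation of an array with the mean of the other arrays of its group, over tested genes, was lowest for heart young control replicate 1 (0.909), muscle old CR replicate 2 (0.92) and muscle young control replicate 4 (0.937). These are bulk tissues, so fewer cells of a type and less RNA per cell cannot be told apart. CR and resveratrol groups were each compared with the same old control arrays, so both sets of changes share those arrays.

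Promoter windows (RefSeq, build GRCm38.p6, each running from 250 bases before to 50 bases after a gene's start) were present for 8 of the 10 members. Nr3c1 and Zbtb16 were not matched. The full palindrome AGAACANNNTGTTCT, a textbook receptor-binding element, occurred on either strand in 3 of 32851 windows (0.00913%), and 1 of these belonged to Sgk1. A looser form, GNACANNNTGTNC, occurred in 156 windows (0.475%), among them windows of Sgk1 and Fam107a, and contains the full form. The shortest form, ACANNNTGT, which lies within both, was found in 6.85% of windows, and TGTTCT, 1 arm of the palindrome, in 19% of windows, including windows of Fam107a, Sgk1 and Tsc22d3. The 250 bases before the start are shown 5′ to 3′ on the gene's strand for both members with the looser form, since these were the only promoters of members in which a palindrome of that length was found. Capitals mark the match. Sgk1 has 6 windows, of which only 1 holds the match. For Sgk1 the stretch is chr10:21993640-21993889 on the plus strand, with the match 189 to 175 bases before the start. For Fam107a it is chr14:8309778-8310027 on the minus strand, with the match 120 to 108 bases before the start.
Sgk1: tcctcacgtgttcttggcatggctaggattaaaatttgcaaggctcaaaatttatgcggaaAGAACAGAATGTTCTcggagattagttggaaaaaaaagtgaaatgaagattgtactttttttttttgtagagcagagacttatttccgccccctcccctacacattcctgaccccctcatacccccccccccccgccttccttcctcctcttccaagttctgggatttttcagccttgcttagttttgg
Fam107a: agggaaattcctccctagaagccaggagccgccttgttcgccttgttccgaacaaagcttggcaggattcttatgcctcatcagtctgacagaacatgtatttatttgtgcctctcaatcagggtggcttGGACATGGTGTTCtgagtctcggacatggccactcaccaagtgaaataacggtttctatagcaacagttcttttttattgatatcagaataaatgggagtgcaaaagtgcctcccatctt
A match is a description of letters in this window and is no evidence that the receptor binds there.

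Under CR most of the targets were higher than in old controls in each tissue. The receptor gene was not by its brightest probe set, although another of its probe sets rose in heart. In heart 8 members rose and 1 fell, beside 7.94% of 13285 genes that rose and 14.1% that fell. In muscle 5 rose and 2 fell, beside 17.5% and 13.6% of 12831 genes. In neocortex 9 rose and none fell, beside 13.1% and 17.5% of 13057 genes, with only Nr3c1 not called. The median change of the 10 members was 1.09 in heart, 0.87 in muscle and 0.73 in neocortex on the log2 scale, against medians over all genes of 0, 0.104 and -0.027. Over all 30 combinations of member and tissue, 22 rose, 3 fell and 5 were not called. Fkbp5, Arrdc2, Errfi1 and Fam107a rose in all 3 tissues, beside 0.684% of the 11111 genes tested in all of them. When probe sets of a gene were averaged, Fkbp5 lost its call in muscle and neocortex, Errfi1 in muscle and Fam107a in neocortex. The averages took in probe sets too dim to be tested, and both tested probe sets of Fkbp5 rose in all 3 tissues. Of these genes only Arrdc2 then kept its calls in all 3 tissues. It has only 1 probe set, so averaging could not change its values.

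Resveratrol changed fewer members. In heart 3 rose and none fell, beside 7.08% of genes that rose and 10.5% that fell. In muscle 4 rose and 2 fell (9.42% and 9.26% of genes), and in neocortex 8 rose and none fell (12.3% and 13.9%). Over the 30 combinations 15 rose, 2 fell and 13 were not called. Fam107a was the only member that rose in all 3 tissues, beside 0.513% of genes. Its heart call was lost when its probe sets were averaged, including 1 too dim to be tested in heart (limma adjusted p = 0.0994). The medians of the members were 0.21 in heart, 0.19 in muscle and 0.33 in neocortex, against 0.009, 0.066 and -0.005 over all genes.

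**Figure D1:**
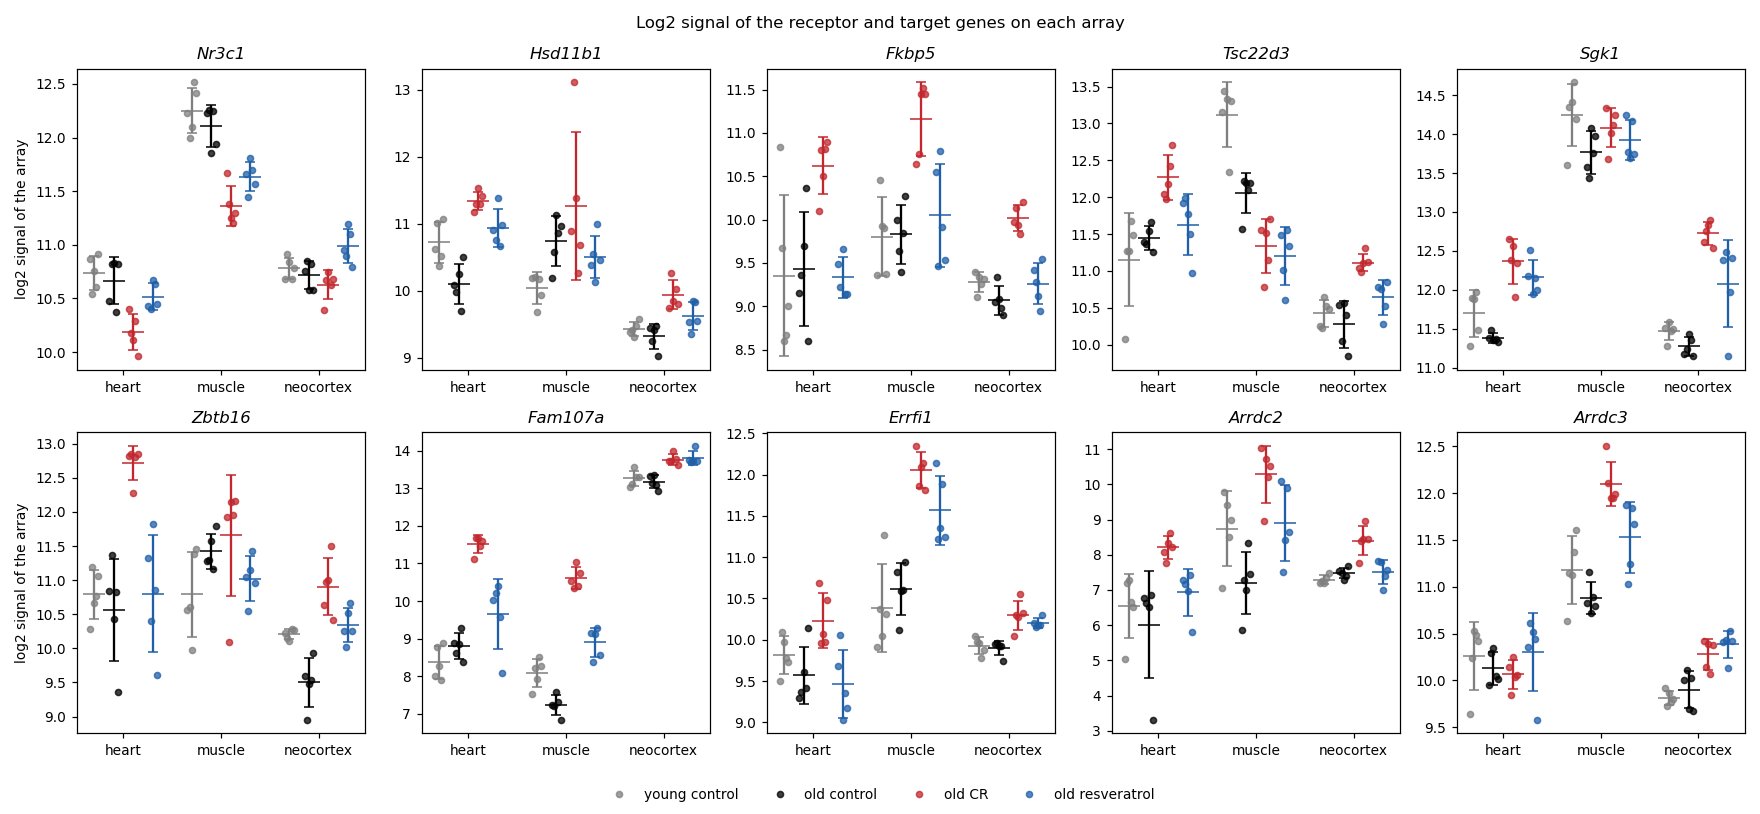
Log2 signal (vertical axis) of the 10 genes on each of 60 arrays, by tissue (horizontal axis) and group, with bars at the group mean ± SD (n = 5). The old CR points of Fam107a lie above the old control points in all 3 tissues, and those of Nr3c1 lie below them in muscle.

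**Figure D2:**
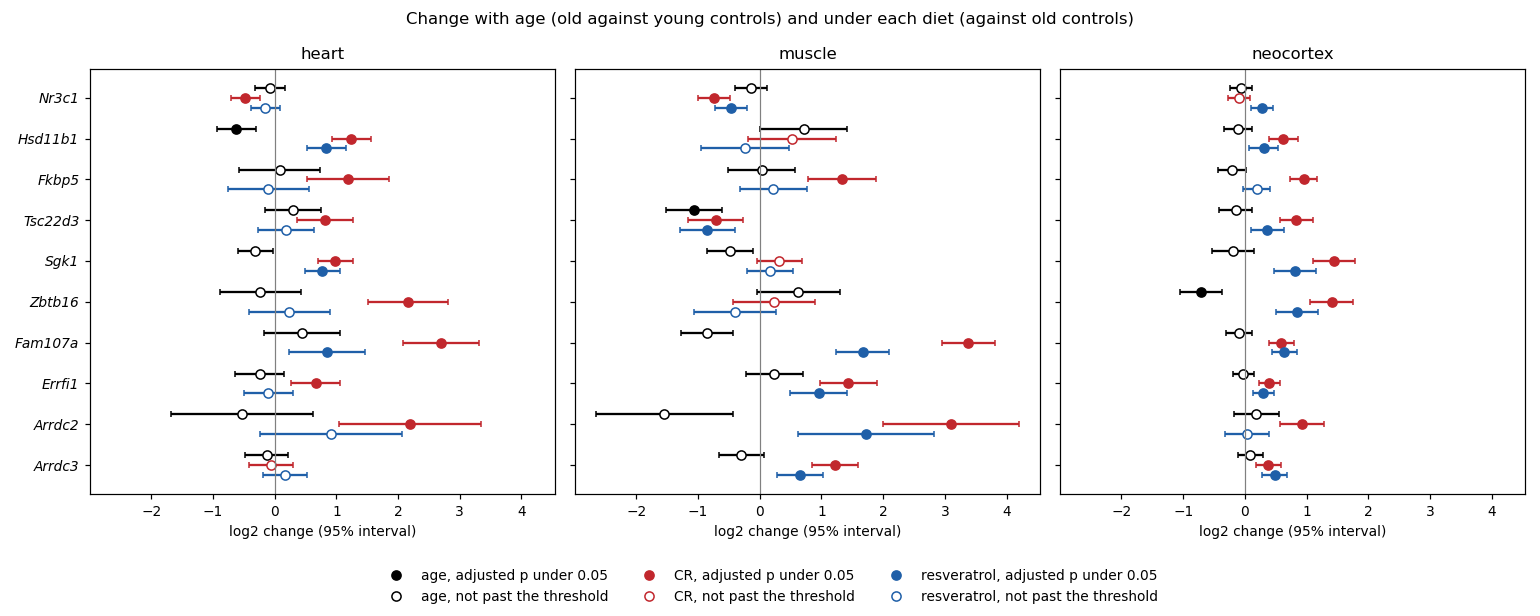
Log2 change with its 95% interval for age (old control minus young control), CR and resveratrol (each minus old control) by member and tissue, filled where the adjusted p is under 0.05. Fam107a under CR reaches 2.70 in heart and 3.38 in muscle, and 22 of the 30 points for CR are filled on the right of 0.

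Nr3c1 encodes the receptor. In muscle its signal was 4810, 4910, 3700, 4870 and 3940 in old controls, 3260, 2670, 2430, 2360 and 2520 under CR, and 3240, 2790, 3590, 3320 and 3030 under resveratrol. Every array of either diet lay below every old control. The log2 change was -0.75 (SE 0.13) under CR (limma, BH adjusted p = 0.000174), and -0.47 (SE 0.13) under resveratrol (adjusted p = 0.0111). In heart old controls read 1420, 1810, 1820, 1330 and 1810 and CR arrays 1350, 1160, 1110, 1250 and 997, with 1 CR array just above the lowest control. Nr3c1 fell by 0.48 on the log2 scale there (SE 0.12, limma adjusted p = 0.00408), and the resveratrol change of -0.15 was not called (adjusted p = 0.425).

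In neocortex the brightest probe set of the receptor was not called under CR and rose under resveratrol. Old control signals of Nr3c1 ran from 1530 to 1840 and CR signals from 1350 to 1710, a change of -0.09 with a 95% interval of -0.27 to 0.09. Resveratrol arrays read 1990, 1900, 2350, 2190 and 1770, and all but 1 were above every control. The rise of 0.27 (SE 0.09, limma adjusted p = 0.0202) was lost on leaving out old control replicate 3 or 5 or resveratrol replicate 3 or 4 (adjusted p from 0.0559 to 0.0634). It was also lost with the test named in the study's methods (BH adjusted p = 0.0703).

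The fall of Nr3c1 rests on some of its probe sets and not on others. Besides the brightest, 1460303_at, it has 5 more, of which 1431378_at was too dim to be tested in any tissue. In muscle under CR, 1421866_at (-1.51) and 1421867_at (-0.63) also fell, and 1453860_s_at (0.02) and 1457635_s_at (0.34) were not called. In heart under CR, 1421866_at rose by 1.37 on the log2 scale (SE 0.26, limma adjusted p = 0.000373), where 1460303_at fell by 0.48. That probe set had also fallen with age in heart, by 1.70 (adjusted p = 6.66e-05). When all its probe sets are averaged, the dim 1431378_at included, the heart CR change of Nr3c1 becomes 0.44 and that of muscle -0.09, neither of them called. The heart age change then becomes -0.97 (adjusted p = 0.00383). How the averages read without that dim probe set was not tested. Under resveratrol the averaged change of Nr3c1 is -0.09 in muscle (adjusted p = 0.782) and 0.09 in neocortex (adjusted p = 0.718), so both calls are lost. The direction of the receptor transcript in heart depended on the probe set.

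**Figure D3:**
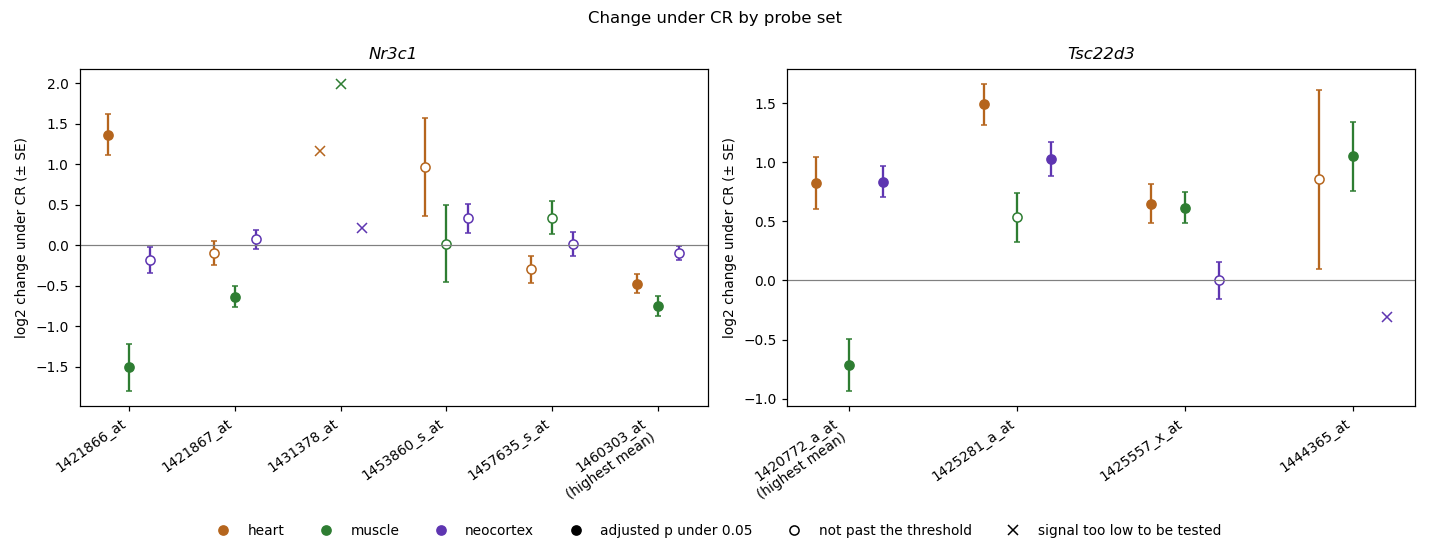
Log2 change under CR (vertical axis, ± SE) for each probe set of Nr3c1 and Tsc22d3 in the 3 tissues, filled where the adjusted p is under 0.05, crosses where the signal was too low to be tested. In heart 1421866_at lies at 1.37 while 1460303_at lies at -0.48, and in muscle the Tsc22d3 probe sets lie on both sides of 0.

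Hsd11b1 encodes the dehydrogenase that regenerates active glucocorticoid from its inert form inside cells. In heart its signal was 1580, 2050, 1320, 1470 and 2140 in young controls and 1080, 1010, 1210, 830 and 1440 in old controls. Under CR it was 2300, 2520, 2950, 2500 and 2730, and under resveratrol 1920, 1720, 2680, 1630 and 2010. Both diets put every array above every old control. Hsd11b1 fell with age by 0.62 on the log2 scale (SE 0.15, limma adjusted p = 0.00925), rose by 1.24 under CR (SE 0.15, adjusted p = 2.63e-06), a 2.36-fold difference, and rose by 0.84 under resveratrol (SE 0.15, adjusted p = 0.000348). The fall with age was the only call among members in the heart age comparison, in which 7.05% of genes rose and 3.79% fell, and it was lost with the test named in the study's methods (BH adjusted p = 0.112).

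Other values moved with the heart diet groups. Of 5 adipocyte markers tested in heart, 3 rose under CR and 2 under resveratrol, and their sum ran from 27000 to 38800 in old controls, 44700 to 65500 under CR and 41900 to 59100 under resveratrol. Of 5 atrial markers 1 fell with age, 3 rose under CR and all 5 rose under resveratrol, with sums of 72600 to 158000 in old controls, 148000 to 189000 under CR and 166000 to 209000 under resveratrol. Of 5 fibroblast markers 2 fell with age, 2 rose under CR and 3 rose under resveratrol, with sums of 25000 to 40000 in young controls, 15500 to 32900 in old controls, 39200 to 46100 under CR and 33000 to 44300 under resveratrol. Of 9 macrophage markers 6 rose under either diet, with sums of 12400 to 17300 in old controls, 19900 to 24400 under CR and 17700 to 26500 under resveratrol. All 4 liver markers tested rose under CR, Alb by 4.06, and 2 rose under resveratrol. Their sum was 449 to 663 in old controls, 2700 to 4630 under CR and 611 to 4690 under resveratrol. Over all heart genes 7.94% rose under CR, 7.08% rose under resveratrol and 3.79% fell with age. The 3′ actin control probe set minus its 5′ partner on the log2 scale, a sign of RNA integrity, was 1.39 ± 0.16 (SD, n = 5) in old control hearts and 0.787 ± 0.111 under CR, 0.819 ± 0.117 under resveratrol and 0.719 ± 0.1 in young controls. Each of the age, CR and resveratrol differences in heart had an exact permutation p of 0.00794 (two-sided, adjusted p = 0.022 over 36 tests, n = 5 per group), the smallest that 5 against 5 can give. The part of these markers and of RNA integrity in the heart results was not tested.

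In neocortex Hsd11b1 signals were 519 to 708 in old controls and 851 to 1230 under CR, with no overlap. The change was 0.62 (SE 0.11, limma adjusted p = 0.000216). Under resveratrol they ran from 654 to 915, a change of 0.30 (adjusted p = 0.0487) that was lost in 7 of the 10 fits that left out 1 array. It held only without old control replicate 1 or 4 or resveratrol replicate 2. In muscle 1 CR array stood apart: replicate 2 read 8850 and the other CR arrays 1900, 2680, 1230 and 1640, against 1170 to 2250 in old controls. The change of 0.52 was not called (adjusted p = 0.251) and was 0.06 without that array. The same array had the highest sum of adipocyte markers in muscle, 181000, while the group's lowest was 87700.

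Fkbp5 encodes a co-chaperone that receptor activation induces and that in turn lowers the receptor's affinity for hormone. Its signal in neocortex was 529, 646, 540, 506 and 476 in old controls and 1010, 1130, 984, 911 and 1180 under CR. In muscle it was 1020, 797, 671, 923 and 1240 in old controls and 1600, 1730, 2790, 2930 and 2780 under CR. In heart it was 568, 659, 831, 1310 and 386 in old controls and 1100, 1790, 1450, 1800 and 1900 under CR. The groups were apart in neocortex and muscle, and in heart 1 old control exceeded 1 CR array. The rise was 0.95 (SE 0.11, limma adjusted p = 1.22e-06) in neocortex, 1.33 (SE 0.26, adjusted p = 0.000833) in muscle and 1.19 (SE 0.32, adjusted p = 0.00874) in heart, which are 1.93-fold, 2.52-fold and 2.28-fold.

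Resveratrol gave no call for Fkbp5 in any tissue. Its changes were -0.10 in heart (95% interval -0.76 to 0.56), 0.22 in muscle (-0.33 to 0.77) and 0.19 in neocortex (-0.03 to 0.41). The intervals in heart and muscle are wide and include changes in either direction. The second tested probe set, 1448231_at, rose under CR in all 3 tissues, by 2.90 in heart, 1.01 in muscle and 1.03 in neocortex, and the third, 1447736_at, was too dim to be tested in any tissue. Averaged over all 3 probe sets, the dim one included, the CR change was 0.95 in muscle (adjusted p = 0.0893) and 0.21 in neocortex (adjusted p = 0.65), so both calls were lost.

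Tsc22d3 encodes the leucine zipper protein GILZ, a mediator of the anti-inflammatory action of glucocorticoids. It rose under CR in heart and neocortex. Heart signals were 2450 to 3240 in old controls and 4040 to 6710 under CR, and neocortex signals 919 to 1510 and 2040 to 2540. Neither pair overlapped, and the changes were 0.82 (SE 0.22, limma adjusted p = 0.00811) and 0.83 (SE 0.13, adjusted p = 3.82e-05). Resveratrol gave 0.18 in heart (adjusted p = 0.635). In neocortex it gave 0.36 (adjusted p = 0.0408), a call lost without old control replicate 2 or 5 or without resveratrol replicate 1, 2 or 5 (adjusted p from 0.086 to 0.142), and lost when its probe sets were averaged (0.11, adjusted p = 0.555).

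In muscle the brightest Tsc22d3 probe set fell. Signals were 9130, 11100, 10300, 5210 and 10100 in young controls and 3050, 4770, 4660, 4370 and 4680 in old controls, all old controls being lower. The log2 change with age was -1.06 (SE 0.22, limma adjusted p = 0.0229), the only call among members in a comparison in which 0.257% of genes rose and 0.171% fell. CR arrays read 3010, 1770, 2930, 2260 and 3330 and resveratrol arrays 2880, 2080, 1550, 3020 and 2580, changes of -0.71 (SE 0.22, adjusted p = 0.0167) and -0.85 (SE 0.22, adjusted p = 0.00843) from old controls. The age call was lost in 5 of 10 fits without 1 array, namely young control replicate 1, 2, 3 or 5 or old control replicate 1 (adjusted p from 0.0619 to 0.0879), and the change lay between -1.05 and -0.94 in those fits.

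The probe sets of Tsc22d3 disagreed in muscle under CR. The brightest, 1420772_a_at, fell, 1425557_x_at rose by 0.61 (limma adjusted p = 0.00147), 1444365_at rose by 1.05 (adjusted p = 0.0103), and 1425281_a_at changed by 0.53 without passing the threshold (adjusted p = 0.0542). Averaged over its probe sets, the change of Tsc22d3 under CR was 0.37 and under resveratrol 0.09, neither called. With age the second brightest, 1425281_a_at, fell by 1.27, as the brightest did. In heart under CR 1425281_a_at rose by 1.49 and 1425557_x_at by 0.65.

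Sgk1 encodes a kinase that serum and glucocorticoids induce and that promotes ion transport and cell survival. Heart signals were 2680, 2870, 2620, 2630 and 2570 in old controls, 6450, 5320, 6040, 3830 and 5180 under CR, and 4640, 5840, 3950, 4550 and 4110 under resveratrol. All arrays of both diets exceeded every old control. The changes were 0.98 (SE 0.14, limma adjusted p = 1.15e-05) and 0.78 (SE 0.14, adjusted p = 0.000272).

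In neocortex Sgk1 rose further under CR. Old controls read 2320, 2420, 2770, 2620 and 2270 and CR arrays 6250, 6900, 7280, 7620 and 5920, a 2.73-fold difference without overlap (1.45, SE 0.16, adjusted p = 1.17e-06). Resveratrol arrays read 5350, 5760, 2270, 4020 and 5440, with replicate 3 at the lowest old control value and the other 4 above all of them. The rise of 0.81 (SE 0.16, adjusted p = 0.000763) was lost with the test named in the study's methods (BH adjusted p = 0.0566). In muscle, where the same probe set was brightest (11000 to 26000 over the 20 arrays), the changes of 0.32 under CR and 0.16 under resveratrol were not called. Sgk1 is the member with the full palindrome shown above, in 1 of its 6 promoter windows.

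Zbtb16 encodes a zinc finger repressor, PLZF, that glucocorticoids induce strongly in several cell types. In heart old controls read 1830, 2630, 1370, 1820 and 655 and CR arrays 7260, 7400, 4970, 7150 and 7350. Every CR array was above every control, and the change of 2.16 (SE 0.32, limma adjusted p = 2.27e-05) is 4.47-fold. Resveratrol arrays were spread from 778 to 3630 and gave 0.24 (adjusted p = 0.673). In neocortex signals were 1110 to 1250 in young controls, 495 to 980 in old controls, 1360 to 2890 under CR and 1040 to 1620 under resveratrol. Old controls were below all other groups there.

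Zbtb16 fell with age in neocortex by 0.71 (SE 0.17, limma adjusted p = 0.0314), the only call among members in a comparison in which 1.08% of genes rose and 0.383% fell, and rose by 1.41 under CR (SE 0.17, adjusted p = 1.91e-06) and by 0.84 under resveratrol (SE 0.17, adjusted p = 0.0006). The age call was lost in 6 of 10 fits without 1 array (young control replicate 2, 4 or 5 or old control replicate 2, 3 or 4, adjusted p from 0.0624 to 0.0909). In muscle CR replicate 2 read 1090 and the other CR arrays 3870, 4550, 3970 and 4580, against 2300 to 3530 in old controls. The change of 0.23 was not called, and without that array it was 0.62 (adjusted p = 0.047). The other probe sets of the gene, 1419874_x_at and 1427638_at, rose in muscle under CR by 1.13 and 1.70.

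Fam107a encodes an actin-associated protein of the stress response, abundant in brain. In muscle it read 151, 148, 191, 158 and 115 in old controls, 1470, 1310, 2120, 1350 and 1730 under CR, and 566, 333, 559, 618 and 382 under resveratrol. The 3 groups did not overlap. The log2 change was 3.38 under CR (SE 0.21, limma adjusted p = 1.15e-09), 10.4-fold and the largest of any member, and 1.67 under resveratrol (SE 0.21, adjusted p = 1.71e-05). With age the change in muscle was -0.86 (adjusted p = 0.0679), and it passed the threshold without young control replicate 1 (-0.99, adjusted p = 0.0371).

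In heart Fam107a read 474, 394, 463, 626 and 332 in old controls and 2220, 3280, 3290, 2830 and 3100 under CR. That is a change of 2.70 (SE 0.30, limma adjusted p = 7.04e-07), or 6.51-fold. Resveratrol arrays read 1040, 1180, 1360, 766 and 271, of which the last was below every old control, and the change of 0.85 (SE 0.30, adjusted p = 0.0486) was lost in 8 of 10 fits without 1 array. It held only without old control replicate 4 or resveratrol replicate 5. In neocortex, where the signal was already high, both diets raised it by similar amounts: 7830 to 10400 in old controls, 12500 to 16300 under CR and 13400 to 17900 under resveratrol, changes of 0.59 (adjusted p = 9.79e-05) and 0.64 (adjusted p = 5.89e-05). The difference between the diets there was -0.05 with a 95% interval of -0.25 to 0.16. The second probe set, 1434203_at, rose under CR in heart (2.19), muscle (2.48) and neocortex (0.43). Averaged over 3 probe sets, of which 1435918_at was tested only in neocortex, the neocortex change under CR was 0.42 and not called (adjusted p = 0.0815).

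Errfi1 encodes a feedback inhibitor of the epidermal growth factor receptor. In muscle it read 1820, 1120, 1540, 1560 and 1960 in old controls, 5220, 3710, 4360, 4510 and 3610 under CR and 4520, 2390, 2620, 3780 and 2420 under resveratrol. Both diets lay wholly above the controls, with changes of 1.43 (SE 0.22, limma adjusted p = 9.11e-05) and 0.95 (SE 0.22, adjusted p = 0.00509). A second probe set, 1419816_s_at, went the other way in muscle, by -0.76 under CR (adjusted p = 0.0796) and -1.13 under resveratrol (adjusted p = 0.0183). With the mean of both the changes were 0.34 and -0.09, neither called.

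In neocortex Errfi1 rose by 0.40 under CR and 0.30 under resveratrol (limma adjusted p = 0.000685 and 0.00749), and both groups were above all old controls, which ran from 859 to 995. Averaged over both probe sets the change under resveratrol was 0.05 and not called (adjusted p = 0.767). In heart it rose by 0.67 under CR (SE 0.19, adjusted p = 0.0141), a call lost without CR replicate 1 (adjusted p = 0.0518), and changed by -0.11 under resveratrol. There the second probe set rose under both diets, by 1.30 and 0.74.

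Arrdc2 and Arrdc3 encode arrestin-domain proteins that bind ubiquitin ligases and take part in receptor turnover. Arrdc2 in muscle read 58.7, 157, 129, 323 and 175 in old controls, 2090, 495, 1700, 1190 and 1470 under CR and 1100, 181, 340, 952 and 400 under resveratrol. CR arrays were all above the controls, and resveratrol arrays overlapped with them. The changes were 3.10 (SE 0.53, limma adjusted p = 0.000223), or 8.55-fold, and 1.72 (SE 0.53, adjusted p = 0.0273). The resveratrol call was lost without old control replicate 1 or 3 or resveratrol replicate 1 or 4 (adjusted p from 0.0547 to 0.084).

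Arrdc2 was dim in heart, at 109, 98.6, 90.8, 116 and 9.94 in old controls and 273, 217, 322, 393 and 301 under CR. The groups did not overlap, and the change was 2.19 (SE 0.56, limma adjusted p = 0.00595). Old control replicate 5, at 9.94, lies far below the gene filter of 60.43, and without it the change was 1.52 (adjusted p = 0.013). The test named in the study's methods lost the call on log2 signal (BH adjusted p = 0.0588). In neocortex the change was 0.92 under CR (adjusted p = 0.000335) and 0.04 under resveratrol (95% interval -0.33 to 0.40).

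Arrdc3 behaved differently in heart, where its change under CR was -0.06 with a 95% interval of -0.42 to 0.29. In muscle it read 1810, 2290, 1690, 1900 and 1770 in old controls and 5810, 4420, 3940, 3950 and 4060 under CR, with no overlap (1.22, SE 0.18, limma adjusted p = 5.03e-05). Resveratrol arrays there ran from 2080 to 3740, a rise of 0.65 (adjusted p = 0.0139). In neocortex it rose by 0.38 under CR (adjusted p = 0.0046) and by 0.48 under resveratrol (adjusted p = 0.000683).

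Technical values moved with the muscle and neocortex groups as well. In neocortex the 3′ to 5′ actin difference was 0.162 higher under CR and 0.341 higher under resveratrol than in old controls, and the poly-A control level 1.04 higher under resveratrol (each with an exact permutation p of 0.00794, two-sided, adjusted p = 0.022 over 36 tests). The 2 diets also differed there from each other, CR minus resveratrol being -0.179 for actin and -0.668 for poly-A. Each had an exact permutation p of 0.0159 (adjusted p = 0.0358). In muscle the spiked poly-A control transcripts had a mean log2 signal of 6.40 to 7.19 in old controls, 9.16 to 10.6 under CR and 9.84 to 10.3 under resveratrol, and the 3′ to 5′ difference of Gapdh differed from old controls by -1.05 under CR and -1.06 under resveratrol. Old control replicate 1 had the highest value, 3.23, and without it, a choice made after seeing the data, the differences were -0.44 and -0.44. Of 7 endothelial markers in muscle, 4 fell and 1 rose under CR (13.6% and 17.5% of all genes), and 4 fell under resveratrol (9.26%). Of 9 macrophage markers in muscle, 4 rose under CR and 4 under resveratrol (17.5% and 9.42% of all genes rose), and none fell. In neocortex the 4 striatal markers tested, led by Drd1 at -1.40, all fell under CR (17.5% of all genes fell). Their sum ran from 11600 to 16500 in old controls, 2950 to 12800 under CR and 3610 to 13000 under resveratrol. Sums of astrocyte markers in neocortex were 21100 to 24500 in old controls and 20200 to 23900 under CR. The part of these values in the members' changes and in the differences between the diets was not tested.

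Set directly against resveratrol, CR gave higher levels of several targets. In heart Fkbp5, Zbtb16, Errfi1 and Fam107a were higher under CR, 4 members beside 1.43% of genes, and none was lower (2.57%). In neocortex Fkbp5, Zbtb16, Tsc22d3, Sgk1 and Arrdc2 were higher and Nr3c1 lower (3.66% and 5.62% of genes). In muscle only Fam107a differed (0.257% of genes higher and 0.304% lower). The largest difference was that of Zbtb16 in heart, 1.92 (SE 0.32, limma adjusted p = 0.000869), followed by Fam107a in heart at 1.85 (SE 0.30, adjusted p = 0.000746) and in muscle at 1.72 (SE 0.21, adjusted p = 0.000407).

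Fkbp5 differed between the diets by 1.29 (SE 0.32, limma adjusted p = 0.0207) in heart and 0.76 (SE 0.11, adjusted p = 0.000401) in neocortex. Averaged over all its probe sets, including the dim probe set that was not tested, the difference was 1.30 in heart (adjusted p = 0.13) and -0.17 in neocortex (adjusted p = 0.796), neither called. In muscle its difference of 1.11 missed the threshold (adjusted p = 0.0529) and passed it with quantile normalization (adjusted p = 0.0453) or without muscle old CR replicate 1 or 2 or old resveratrol replicate 3, while averaging the probe sets gave 0.54 (adjusted p = 0.646). In neocortex Nr3c1 was lower under CR than under resveratrol (difference -0.36, SE 0.09, limma adjusted p = 0.0111), and the groups did not overlap. That call was lost when all probe sets of Nr3c1 were averaged, its dim probe set included (-0.03, adjusted p = 0.931). Calls near the threshold were lost when single arrays were left out: Fkbp5 in heart without old CR replicate 2, 4 or 5 or old resveratrol replicate 2 or 4 (highest adjusted p = 0.0597), and Errfi1 in heart without old CR replicate 1 or 5 or old resveratrol replicate 3 or 4 (highest 0.07). Zbtb16 in neocortex (0.56, adjusted p = 0.0347) was lost without old CR replicate 2, 3 or 4 or old resveratrol replicate 1, 2 or 5 (highest 0.0986). Tsc22d3 in neocortex (0.47, adjusted p = 0.024) was lost without old CR replicate 4 or old resveratrol replicate 3 or 4 (highest 0.0703). Averaging all probe sets, dim ones included, ended the calls of Fam107a in muscle (1.24, adjusted p = 0.116), and of Zbtb16 (0.42, 0.0527) and Tsc22d3 (0.27, 0.2) in neocortex. With the test named in the study's methods, on log2 signal and BH adjusted, Fkbp5 in heart and in neocortex was the only member still called between the diets. In muscle that test called 0 of all 12831 genes between the diets, so the loss of the Fam107a call there was not particular to this gene.

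**Figure D4:**
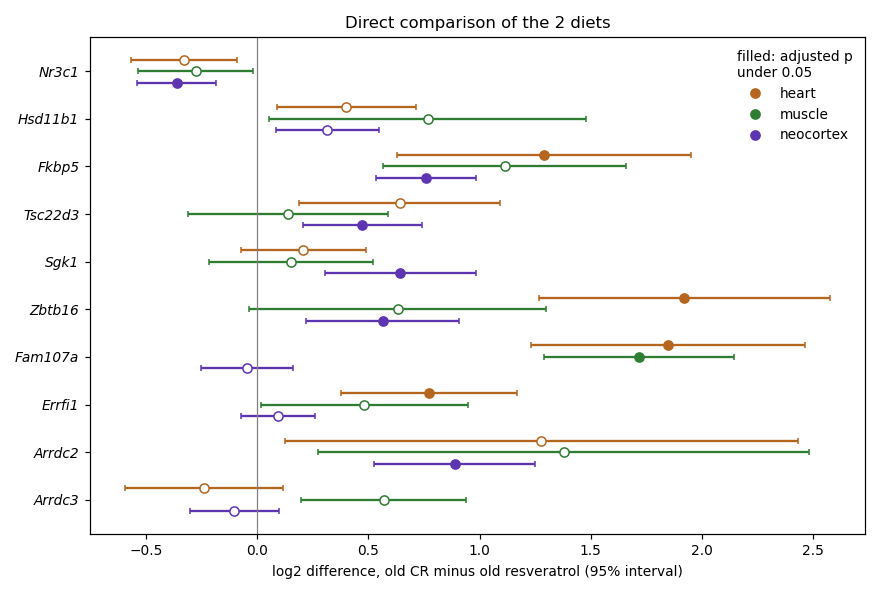
Log2 difference between the old CR and old resveratrol groups (horizontal axis, 95% interval) for each member in heart, muscle and neocortex, filled where the adjusted p is under 0.05. Points on the right are higher under CR; Zbtb16 in heart lies at 1.92 and Fam107a at 1.85 in heart, 1.72 in muscle and -0.05 in neocortex.

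Whether a change differed between tissues was tested in 1 model over all 60 arrays and 11111 genes. The model treats the tissues as independent samples, and does not take into account that they may come from the same mice. Under CR the change of 8 members differed between tissues, beside 36% of genes, and Fkbp5 and Hsd11b1 were not called (limma adjusted p = 0.693 and 0.158). Fam107a had the lowest adjusted p, 5.95e-09, with a change 2.79 larger in muscle than in neocortex. Tsc22d3 differed with muscle 1.54 below heart (adjusted p = 2.04e-05), Arrdc3 with muscle 1.28 above heart (adjusted p = 4.47e-05), and Sgk1 with muscle 1.13 below neocortex (adjusted p = 0.000788). Under resveratrol 5 members differed (27.2% of genes), and with age 3 differed (7.79%). Nr3c1 under resveratrol was 0.74 lower in muscle than in neocortex (adjusted p = 0.000609).

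The wider set of glucocorticoid-regulated genes was read from a list of 38 further genes, of which 37 had a probe set of their own. This list, like the members and the lists below, was chosen with earlier results of these data known. Its counts are therefore descriptions and no independent test. Under CR 20 of the 36 tested in heart rose and none fell (7.94% and 14.1% of all genes), in muscle 21 of 36 rose and 2 fell (17.5% and 13.6%), and in neocortex 16 of 33 rose and 2 fell (13.1% and 17.5%). Their median changes were 0.63, 0.87 and 0.25, against 0, 0.104 and -0.027 over all genes. Under resveratrol 8 rose and 4 fell in heart (7.08% and 10.5% of all genes), 12 rose and 1 fell in muscle (9.42% and 9.26%), and 11 rose and 1 fell in neocortex (12.3% and 13.9%). With age 3 rose and 6 fell in heart (7.05% and 3.79%), 1 rose and 1 fell in muscle (0.257% and 0.171%), and limma called none in neocortex. The heart counts of falls under resveratrol and of rises with age are near those of all genes.

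Under CR the largest changes of that list were as follows. Angptl4, an inhibitor of lipoprotein lipase, rose by 5.76 in heart (SE 0.55, limma adjusted p = 7.13e-08), 2.79 in muscle and 1.21 in neocortex. Pdk4, a kinase that shuts off pyruvate oxidation, rose by 2.50 in heart and 3.29 in muscle. Ddit4, an inhibitor of mTOR signalling, rose by 3.34 in muscle. In heart Pck1, a gluconeogenic enzyme, and Rasd1 rose by 2.19 and 1.37. Plin4, a lipid droplet protein, and Sult1a1, a sulfotransferase, led in neocortex at 2.13 and 1.34. Of the 32 genes of the list tested in all 3 tissues, 12 rose in all of them under CR and 2 under resveratrol, beside 0.684% and 0.513% of genes. Named after their values were seen, the 2 under resveratrol were Mt2, a metallothionein, and Nfkbia, an inhibitor of NF-kappaB.

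Not all listed targets moved up. In muscle Lpin1 and Fbxo32, which encodes an atrophy-linked ubiquitin ligase, fell under CR (-1.06 and -0.69), while Fbxo32 rose in heart by 1.26, and in neocortex Lpin1 and the clock gene Per1 fell (-0.52 and -0.59). These genes were named after their values were seen. Angptl4 fell with age in heart by 3.41 (limma adjusted p = 0.000237).

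**Figure D5:**
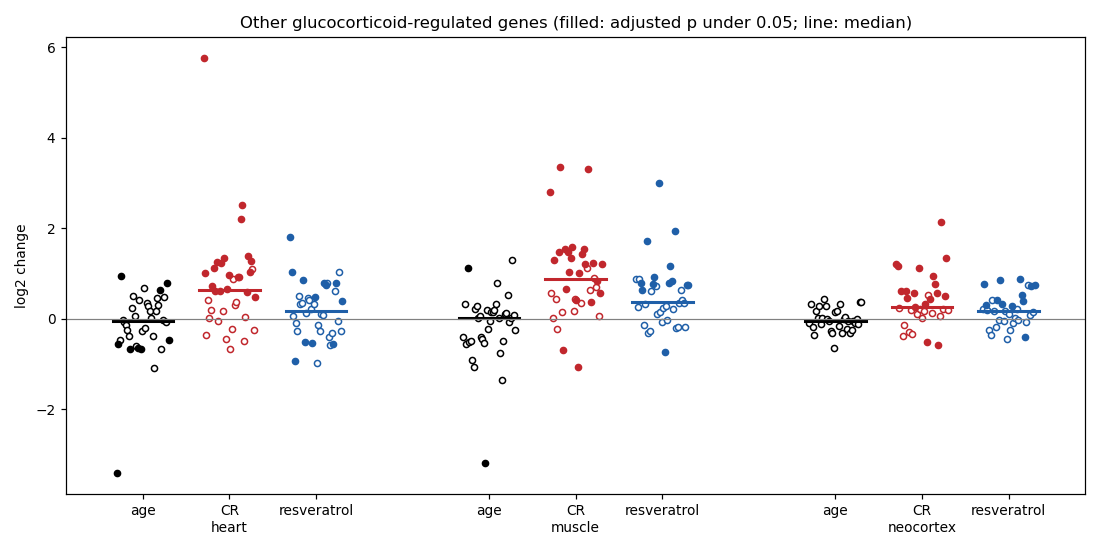
Log2 change (vertical axis) of each tested gene of the list of further glucocorticoid-regulated genes by tissue and comparison (horizontal axis), filled where the adjusted p is under 0.05, with a line at the median. Medians under CR are 0.63 in heart, 0.87 in muscle and 0.25 in neocortex, and the highest point is Angptl4 in heart at 5.76.

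A second list held 27 chaperones of the receptor, coregulators and genes of steroid handling, of which 22 were tested. In heart none rose and 13 fell under CR (14.1% of all genes fell), and 11 fell under resveratrol (10.5%), while with age 6 rose and 2 fell (7.05% and 3.79%). Hsp90aa1, the chaperone that keeps the receptor ready for hormone, fell by 1.40 under CR (SE 0.17, limma adjusted p = 1.84e-06) and 0.86 under resveratrol, after a rise of 0.60 with age. Dnajb1 and Hspa8, chaperones of the same cycle, fell by 1.01 and 0.80 under CR. In muscle 1 rose and 5 fell under CR (17.5% and 13.6%), among them Fkbp4, the co-chaperone that competes with Fkbp5 for the receptor complex, by 0.88 (adjusted p = 0.00341). In neocortex 2 rose and 6 fell (13.1% and 17.5%), led by the import factor Ipo13 (-0.67). Under resveratrol 1 rose and 1 fell in muscle (9.42% and 9.26%), and 4 rose and 5 fell in neocortex (12.3% and 13.9%).

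Clock genes, several of which hormone and feeding time set, were read from a list of 15, all tested in heart and neocortex and 14 in muscle. Under CR 3 fell in heart (14.1% of all genes fell), 7 fell and 1 rose in muscle (13.6% and 17.5%), and 3 fell and 1 rose in neocortex (17.5% and 13.1%). The heart and neocortex counts of falls are near those shares. Dbp, an output gene of the clock, changed in heart by -0.74 under CR and 1.18 under resveratrol, and differed by -1.92 between CR and resveratrol (SE 0.21, limma adjusted p = 5.38e-06). Nr1d1, a clock repressor, fell under CR by 1.64 in muscle, 1.25 in heart and 0.83 in neocortex. The hour of tissue collection is not given in the sources used here, and its part in these values was not tested. Immediate early genes, which neuronal activity induces, fell in neocortex under CR in 7 of 8 cases (17.5% of all genes fell), led by Arc at -1.75 (adjusted p = 0.00133), and under resveratrol in 2 of 8 (13.9%).

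By rule, the 3 genes most like each member were those with the highest Pearson correlation of log2 signal over the 60 arrays after each tissue's mean was removed. For Fam107a these were Glul (0.897), Timp4 (0.855) and Pim3 (0.853), for Arrdc2 Glul (0.782), Pim3 (0.766) and Ddit4 (0.753), and for Errfi1 Dnaja3 (0.785), Ddit4 (0.782) and Cdc37l1 (0.775). For Fkbp5 they were Fam107a itself (0.690), Plin4 (0.650) and Plin5 (0.627), and for Zbtb16 Herpud1 (0.673), Plxna2 (0.665) and Klf9 (0.639). For Nr3c1 they were Hdac2 (0.802), Hnrnph1 (0.798) and Acvr1 (0.783). Tsc22d3 had Nt5c3 (0.773), Fbxo3 (0.772) and Nadk2 (0.77), and Sgk1 had Mmadhc (0.724), Plekhf1 (0.703) and Ccny (0.686). Arrdc3 had Rfk (0.718), Hnrnpk (0.718) and Mrps9 (0.706), and Hsd11b1 had Hsd17b12 (0.779), Cd302 (0.775) and Thrsp (0.773). The points share diet groups and array properties, so these values are descriptions.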

How the data were processed

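The deposited values are Affymetrix array signals, a linear intensity per probe set that the authors had made with GCOS 1.2 (per the submitters' processing notes), 1 array per sample, scaled by the authors to a 2% trimmed mean of 500 on each of the 60 arrays. Genome build and other settings are not given in the sources used here. Probe sets were named from the platform annotation: 34945 had 1 gene symbol, 932 several, 9160 none, and 64 were controls. Only probe sets with 1 symbol were used.

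Signals below 1 were set to 1 (7 values among the probe sets of the members) and log2 was taken. A gene was represented by its probe set of highest mean log2 signal and tested in a tissue where that mean reached the 40th percentile of non-control probe sets (a signal of 60.43 in heart, 69.34 in muscle and 57.28 in neocortex). Each tissue was fitted over its 4 groups with limma 3.58.1 under R 4.3.3 (lmFit, then eBayes with a mean-variance trend). Benjamini-Hochberg adjustment ran over all tested genes. Figures were drawn with matplotlib 3.10.9. Probe sets were tested in a fit of their own, and tissues compared by an F-test in 1 model of all arrays. The number of arrays limits the precision. On simulated data, 56.7% of genes changed by 1 on the log2 scale were found for CR in heart, 86.6% in neocortex and 53.7% in muscle. Only 67 genes were changed by that amount per tissue, and far fewer genes were changed in all than were called under CR. The adjustment depends on that number, so the share found in the real comparisons can differ.

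The members and gene lists were chosen with earlier results of these data known. The text names all members, at most the 4 genes of each further list with the largest called change per tissue and comparison, the 3 genes most like a member, and markers with the largest change. Exceptions are marked where they stand. The alternatives were quantile normalization, an offset of 16, no filter, a filter at the 60th percentile, the t-test that the study's methods name (on log2 or unlogged signal), only the groups compared, the mean of all probe sets, replicate number as a block, outlying arrays left out, and each array left out in turn. For calls here that t-test was BH adjusted at 0.05, while the study took unadjusted p-values of 0.01 or less. The outlying arrays were young control replicate 1 and old control replicate 4 in heart, and young control replicate 4 and old control replicate 1 in muscle. No neocortex array was left out as outlying, and muscle old CR replicate 2 was kept in that fit. Same-numbered samples did not deviate together (correlations from -0.2 to 0.17), and the number was treated as a name. Scan dates were not used here.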

Additional observations from a re-analysis of the deposited data

Results flagged for a closer look

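In 10 of 120 sets of 5 arrays (10 genes, 3 tissues, 4 groups), 1 array lay far from the others. Chance flags about 1 in 20 such sets, which is 6 of 120. Tsc22d3 read 1080 in heart young control replicate 1 (the others 2460 to 3280), 5210 in muscle young control replicate 4 (others 9130 to 11100) and 3050 in muscle old control replicate 1 (others 4370 to 4770). Arrdc2 read 9.94 in heart old control replicate 5 (others 90.8 to 116) and 55.6 in heart old resveratrol replicate 5 (others 125 to 173), and Arrdc3 read 765 on that same resveratrol array (others 1310 to 1560). Zbtb16 read 4970 in heart old CR replicate 3 (others 7150 to 7400) and 1090 in muscle old CR replicate 2 (others 3870 to 4580). In neocortex Errfi1 read 859 in old control replicate 5 (others 969 to 995) and Fam107a 17900 in old resveratrol replicate 4 (others 13400 to 13800).

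A change differed between the 3 tissues in 16 of 30 tests (limma F-test over all 60 arrays, Benjamini-Hochberg adjusted p over all genes). With age these were Tsc22d3 (adjusted p = 0.00539), Fam107a (0.023) and Hsd11b1 (0.023). Under CR they were Nr3c1 (0.00189), Zbtb16 (0.00149), Tsc22d3 (2.04e-05), Sgk1 (0.000788), Arrdc2 (0.0297), Arrdc3 (4.47e-05), Errfi1 (0.00372) and Fam107a (5.95e-09). Under resveratrol they were Nr3c1 (0.000609), Tsc22d3 (0.00233), Errfi1 (0.00564), Fam107a (0.0323) and Hsd11b1 (0.0393). The arrays of the 3 tissues differed in control probe sets as well, as given above, and the part of those values was not tested.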

How the results depend on the processing

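The count of members called was most stable under CR: leaving out 1 array gave 8 to 9 in heart, 7 to 8 in muscle and 9 to 9 in neocortex. It was 2 to 3, 5 to 6 and 5 to 8 under resveratrol, 1 to 2, 0 to 1 and 0 to 1 with age, and 2 to 4, 1 to 3 and 4 to 6 for CR against resveratrol. Members whose change differed between tissues numbered 2 to 4 with age, 7 to 9 under CR and 3 to 7 under resveratrol (each array left out, chosen after seeing the data). Single arrays decided these counts: heart age gave 2 without young control replicate 1; heart CR against resveratrol 2 without old CR replicate 5 or old resveratrol replicate 4; muscle age 0 without young control replicate 2, 3 or 5 or old control replicate 1; muscle CR against resveratrol 2 without old CR replicate 1 or old resveratrol replicate 3, and 3 without old CR replicate 2. Neocortex age gave 0 without young control replicate 2, 4 or 5 or old control replicate 2, 3 or 4, neocortex resveratrol 5 without old control replicate 5, and the tissue difference under resveratrol 3 without muscle old control replicate 5 or old resveratrol replicate 3.

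With the methods' t-test after adjustment, on log2 or unlogged signal, 0 members were called with age in any tissue and 0 in muscle for CR against resveratrol, 4 in neocortex under resveratrol and 1 in neocortex for CR against resveratrol. On log2 signal alone it called 1 in heart for CR against resveratrol. Between the diets in muscle, the adjusted t-test on log2 signal called 0 of all 12831 genes tested. For age it called 2 of those muscle genes, 29 of 13057 neocortex genes and 653 of 13285 heart genes. The counts of 0 members in muscle and for age in neocortex therefore say little about the members themselves. Averaging all probe sets of a gene gave 3 calls in heart with age, 4 in muscle under CR, 3 in muscle and 4 in neocortex under resveratrol, 0 in muscle and 2 in neocortex for CR against resveratrol, and 1 tissue difference under resveratrol. It also turned 5 changes round: Nr3c1 in heart (0.44) and Tsc22d3 in muscle (0.37) under CR, Tsc22d3 (0.09) and Errfi1 (-0.09) in muscle under resveratrol, and Fkbp5 in neocortex for CR against resveratrol (-0.17). These averages take in probe sets too dim to be tested, among them those of Nr3c1 and Fkbp5. Quantile normalization, the offset of 16 and the 60th percentile filter each gave 2 in muscle for CR against resveratrol. With the replicate number as a block, heart counts were 1 with age, 9 under CR, 2 under resveratrol and 4 between the diets, muscle counts 1, 7, 6 and 1, and neocortex counts 1, 9, 6 and 6. The block ended the resveratrol calls of Fam107a in heart (adjusted p = 0.0516) and of Tsc22d3 (0.0532) and Hsd11b1 (0.055) in neocortex.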
